A study of Mus musculus with 4 samples.

Results

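LIN28, TRIM71 and the microRNA machinery were followed through 10 genes of mouse embryonic stem cells (mESCs): Lin28a, Lin28b, Trim71, Dis3l2, Drosha, Dgcr8, Xpo5, Dicer1, Ago1 and Ago2. They were chosen by symbol, as the rows of the count table whose Ensembl gene ID carries that symbol in the GENCODE mouse annotation, and they are 10 of 55401 genes in the table. All 10 were found and all 10 passed the filter on low counts. The cells carried a homozygous mAID-GFP tag at the C terminus of ZBTB21, a BTB zinc finger transcription factor, in the mES-OsTIR1 line, and were kept with LIF, CHIR99021 and PD0325901. The comparison is between 2 libraries of untreated cells and 2 of degron cells. The latter received 1 µg/ml doxycycline for 24 h and then 500 µM of the auxin IAA for 24 h, so that OsTIR1 could direct the tagged protein to destruction. The tagged cells were grown from clones. The labels do not say whether the untreated cells received doxycycline or whether replicates were separate cultures. The p-values therefore cover the spread between these 4 libraries alone, which may be technical. No library with both additions and untagged ZBTB21 was used here, so loss of ZBTB21 and the additions themselves cannot be told apart.

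A microRNA is cut from a long transcript in the nucleus by the Microprocessor, made of the nuclease DROSHA and its RNA-binding partner DGCR8. Exportin 5, the product of Xpo5, carries the hairpin to the cytoplasm, DICER1 removes its loop, and an Argonaute protein holds the mature strand and finds mRNAs through its seed. Embryonic stem cells make the miR-290 and miR-302 microRNAs in abundance and little mature let-7. LIN28A and LIN28B bind the loop of let-7 precursors and block their maturation. In the cytoplasm LIN28A recruits the uridylyltransferases TUT4 and TUT7, and DIS3L2 degrades the tailed precursors. Trim71 (also called Lin41) encodes an RNA-binding ubiquitin ligase that represses mRNAs, and it is itself a classic target of let-7, as is Lin28a.

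The sequences below show what LIN28 and let-7 recognise. The 9 different mature let-7 and miR-98 sequences of RefSeq (GRCm38.p6) share the seed GAGGUAG, and 5 mature microRNAs of the miR-290 and miR-302 clusters share the seed AAGUGCU. Others of these clusters have different seeds, such as AAGUGCC in miR-290a-3p and AUUGCAC in miR-367-3p. Representatives of each family are given 5′ to 3′, with the seed, bases 2 to 8, in capitals.
let-7a-5p: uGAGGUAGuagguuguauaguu
let-7g-5p: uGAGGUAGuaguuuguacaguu
miR-98-5p: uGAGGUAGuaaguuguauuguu
miR-291a-3p: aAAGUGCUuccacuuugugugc
miR-294-3p: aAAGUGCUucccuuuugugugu

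GGAG in the loop of a let-7 precursor is the motif that the zinc knuckles of LIN28 bind. It lies between the mature arms in 9 of 12 mouse let-7 and miR-98 hairpins in RefSeq. Over all mouse hairpins with both arms found, these 12 included, the count was 53 of 645 (8.22%). Where a let-7 gene had no 5′ arm of its own listed, a matching let-7 arm was used. Only the RNA strand of the hairpin was read. The hairpins of Mirlet7b, Mirlet7c-2 and Mir98 lack these letters between their arms. One hairpin of each kind is shown (RefSeq, GRCm38.p6), with GGAG in capitals.
Mirlet7g, chr9:106178840-106178927, plus strand: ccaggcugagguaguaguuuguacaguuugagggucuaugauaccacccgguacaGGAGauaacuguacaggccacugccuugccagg
Mirlet7b, chr15:85707319-85707403, plus strand: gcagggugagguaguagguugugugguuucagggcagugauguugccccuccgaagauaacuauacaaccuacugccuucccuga

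An 8-base let-7 site, CTACCTCA, is the complement of the seed followed by A. On the sense strand of the longest annotated 3′ UTR of each gene, 4 of the 10 genes held at least 1 such site: Trim71 with 4, Lin28a with 2, and Lin28b and Ago2 with 1 each. Over all tested genes with an annotated 3′ UTR, 465 of 12487 (3.72%) held one. Long 3′ UTRs hold more sites by length alone. Among genes whose 3′ UTR was within 25% of the length of the member's own, the share was 5.60% for Lin28a (2775 bases), 9.35% for Lin28b (4445 bases), 11.8% for Trim71 (5512 bases) and 22.4% for Ago2 (11064 bases). None of the 10 held the miR-294 site AGCACTTA, which was found in 440 of the 12487 3′ UTRs (3.52%). The sites are shown with their neighbours (GRCm38, all on the minus strand), the match in capitals, because they are the letters through which let-7 can reach the members themselves.
Lin28a site 1, chr4:134005186-134005209: acagcctgttgaaCTACCTCAttt
Lin28a site 2, chr4:134004548-134004571: gatcgccacaaacCTACCTCActg
Lin28b, chr10:45381019-45381042: ccgggcgggaagtCTACCTCAtgc
Trim71 site 1, chr9:114512469-114512492: cattgcctaagtcCTACCTCAgct
Trim71 site 2, chr9:114512373-114512396: tgataatttctatCTACCTCAact
Trim71 site 3, chr9:114509044-114509067: tagtatggattttCTACCTCAatt
Trim71 site 4, chr9:114509018-114509041: ggcaaaaagttgtCTACCTCAcgt
Ago2, chr15:73097979-73098002: ttacaatgtggatCTACCTCAgtt

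The libraries held 10604451 and 9431642 counts (untreated) and 9055498 and 8344408 counts (degron). Levels are given as CPM, the usual count of a gene relative to the size of its library, with library sizes scaled by the TMM method. Zbtb21 mRNA had 61.7 and 56.9 CPM in untreated and 130 and 133 CPM in degron libraries, with a log2 fold change of 1.14 and an SE of 0.06 (edgeR adjusted p = 2.66e-26). Because the tag removes protein rather than RNA, this level cannot serve as a check of the labels. The 10 markers of embryonic stem cells, Pou5f1, Sox2 and Nanog among them, were all detected and summed to 6144 and 6422 CPM in untreated and 5805 and 5891 CPM in degron libraries. Of these markers 3 were higher and 4 lower in degron cells. The summed markers of each other lineage lay well below those of embryonic stem cells. The 8 fibroblast markers summed to 18.0 to 19.9 CPM in untreated and 18.1 to 18.6 CPM in degron libraries, with Postn, Dcn and Lum at 0. The 8 markers of primitive endoderm summed to 11.5 to 11.8 CPM in untreated and 16.0 to 16.9 CPM in degron libraries. The 8 neural markers summed to 169 to 171 CPM in untreated and 134 to 136 CPM in degron libraries, with Neurog2 at 0. By the rule given below, 3 of the 4 tested neural markers were called lower and 0 higher. Of 4 tested primitive endoderm markers 1 was called higher and 0 lower, and of 3 tested trophoblast markers 1 higher and 0 lower. Of 3 tested fibroblast markers 1 was called higher and 1 lower, and of 3 tested mesendoderm markers 0 were called. Over all tested genes 21.6% were called lower and 22.2% higher. The 7 trophoblast markers summed to 81.7 to 89.4 CPM and 87.2 to 87.7 CPM with Tpbpa at 0, and the 6 mesendoderm markers to 17.6 to 19.0 CPM and 15.8 to 17.7 CPM. The part of these marker levels in the results below was not tested. In bulk RNA, fewer cells of a type and less RNA per cell cannot be told apart.

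After 24 h of degron induction, Lin28a mRNA was lower by a wide margin, Drosha and Ago2 mRNA were slightly higher and Dis3l2 mRNA was slightly lower. The other 6 genes, Lin28b, Trim71, Dgcr8, Xpo5, Dicer1 and Ago1, did not pass the test. A gene was called at a Benjamini-Hochberg adjusted p under 0.05 in edgeR's quasi-likelihood test over 13916 genes. By this rule 4 of the 10 members were called, 2 higher and 2 lower, against 43.8% of all tested genes, 22.2% called higher and 21.6% called lower. The share of members called was thus near the background of the comparison. The median log2 fold change of the 10 was -0.02, and that of all tested genes was 0.01. In 6 of the 10 the values of the groups did not overlap, against 70.6% of tested genes. Of the 10, Lin28a alone lay outside the central 90% of tested genes, which ran from -0.77 to 0.76 on the log2 scale.

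**Figure D1:**
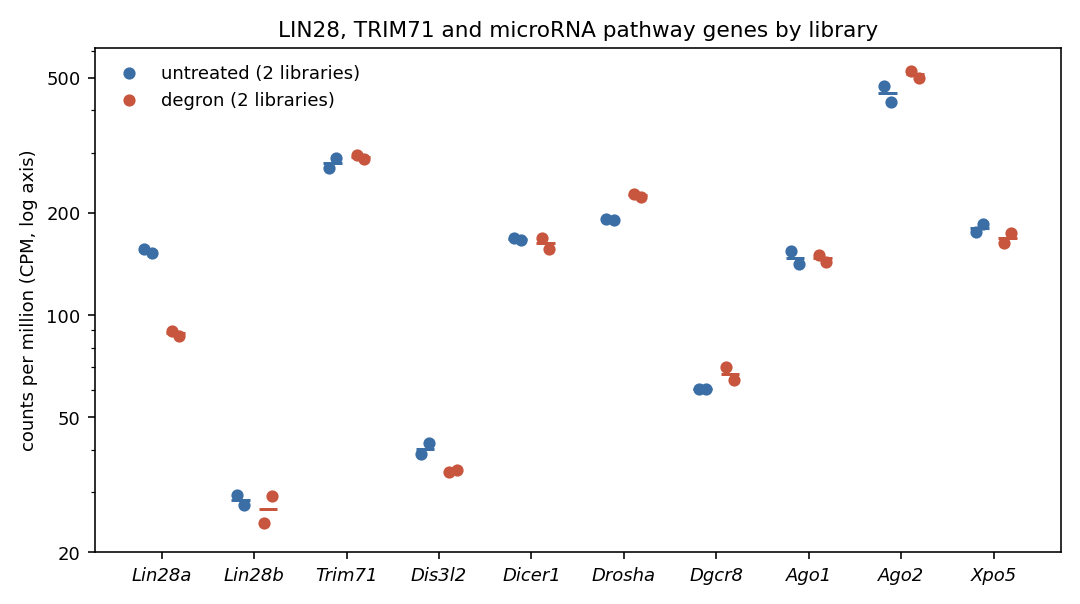
CPM (log axis) of the 10 pathway genes in each of the 2 untreated and 2 degron libraries, with a bar at the mean of each group. The degron points of Lin28a, at 89.5 and 86.7 CPM, lie far below its untreated points at 156 and 153 CPM, and the points of the other genes lie close together.

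**Figure D2:**
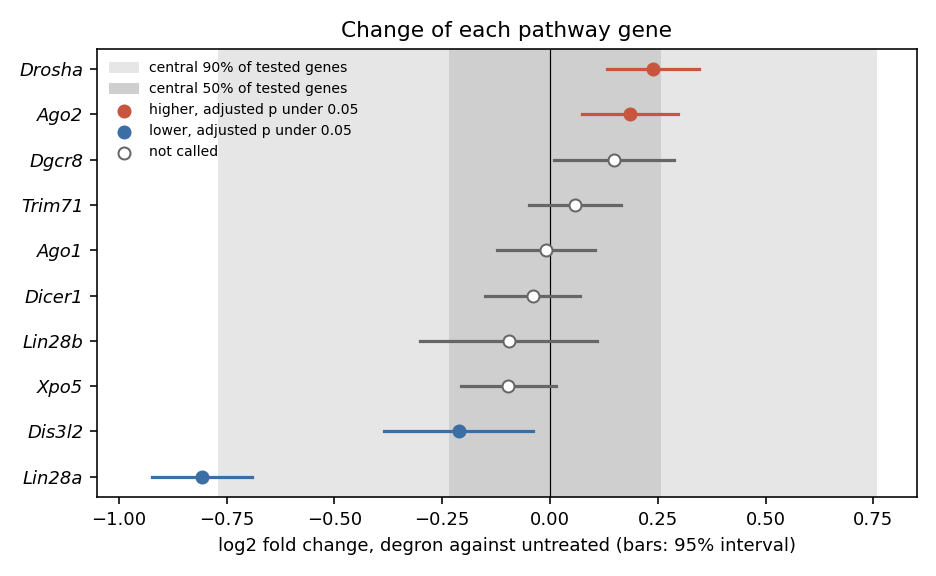
Log2 fold change of each pathway gene in degron against untreated cells with its 95% interval, over the range of the central 50% and central 90% of all 13916 tested genes. Lin28a at -0.81 lies below the central 90%, and the other 9 genes lie within it.

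Lin28a (ENSMUSG00000050966.9, chr4:134003330-134018841, minus strand, mm10) is the LIN28 gene that mESCs express most. Its reads numbered 1647 and 1407 in untreated and 820 and 726 in degron libraries, or 156 and 153 CPM against 89.5 and 86.7 CPM. Both degron libraries lay below both untreated libraries with a wide gap. Its mean fell from 154 ± 2.42 to 88.1 ± 1.95 CPM (SD, n = 2), a fold of 0.571. The log2 fold change was -0.81 ± 0.06 (SE, 95% interval -0.92 to -0.69, edgeR adjusted p = 3.33e-20), and 4.56% of tested genes had a value as low or lower. Lin28a was called in every alternative fit, DESeq2 and the removal of any single library included. Its exons share 234 bases with Gm13061 on the opposite strand, which had at most 1 count in any library.

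Lin28b (chr10:45376620-45486395, minus strand) encodes the second LIN28 protein, which is best known from the cell nucleus and from tumours. It was sparsely expressed, at 29.4 and 27.5 CPM in untreated and 24.3 and 29.1 CPM in degron libraries. The groups overlapped, since 1 degron library lay below both untreated libraries and the other between them. The log2 fold change was -0.10 ± 0.10 (SE, 95% interval -0.30 to 0.11, edgeR adjusted p = 0.472). The interval leaves room for a fall but not for one of the size seen in Lin28a. Per kilobase of annotated exon, Lin28a stood at 12.1 and 12.6 times the level of Lin28b in the untreated libraries and at 8.34 and 6.75 times in the degron libraries. The difference between the fold changes of the 2 genes was not itself tested.

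Like Lin28a in profile were Polr2h, Tdgf1 and Sdr39u1, the 3 protein-coding genes with the smallest Euclidean distance to Lin28a over the 4 centred log2 CPM values (0.0382, 0.0407 and 0.0415). Polr2h, a subunit shared by the RNA polymerases, had 79.2 and 77.0 CPM in untreated and 44.4 and 44.7 CPM in degron libraries. Tdgf1, which encodes the Nodal co-receptor Cripto and is among the stem cell markers above, had 876 and 846 CPM in untreated and 485 CPM in both degron libraries. Sdr39u1 had 10.4 and 9.76 CPM against 5.67 and 5.49 CPM. With 4 libraries in 2 groups such a likeness reflects mostly a fold change of the same size.

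Dis3l2 (chr1:86703808-87050095, plus strand) encodes the exonuclease that removes uridylated let-7 precursors. It had 38.7 and 41.7 CPM in untreated and 34.5 and 34.9 CPM in degron libraries, with no overlap. The log2 fold change was -0.21 ± 0.09 (SE, 95% interval -0.39 to -0.04, edgeR adjusted p = 0.0399), a fold of 0.863. This call was fragile. It was lost with DESeq2 (adjusted p = 0.338), without untreated replicate 2 (edgeR adjusted p = 0.212), without degron replicate 1 (0.174) and without degron replicate 2 (0.127).

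Trim71 (chr9:114507133-114564369, minus strand), with the most let-7 sites of the 10, was steady. It had 270.5 and 289.8 CPM in untreated and 295 and 288 CPM in degron libraries, and the groups overlapped. The log2 fold change was 0.06 ± 0.05 (SE, 95% interval -0.05 to 0.17, edgeR adjusted p = 0.405), an interval that leaves no room for a change of the size of Lin28a. The 3 members with a let-7 site other than Trim71 had log2 fold changes of -0.81 (Lin28a), -0.10 (Lin28b) and 0.19 (Ago2), so the genes with a site did not move one way. Trim71 shares 135 exonic bases with C130032M10Rik on the opposite strand, which had 1 to 3 counts.

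Drosha (chr15:12824815-12935291, plus strand), the nuclease of the Microprocessor, had 191 and 189.8 CPM in untreated and 228 and 222 CPM in degron libraries. Both degron libraries lay above both untreated libraries. The log2 fold change was 0.24 ± 0.05 (SE, 95% interval 0.13 to 0.35, edgeR adjusted p = 0.000142), a fold of 1.18, and the call stood in every alternative fit. Dgcr8 (chr16:18253948-18289246, minus strand), its partner, had 60.6 CPM in both untreated and 70.0 and 64.1 CPM in degron libraries. The degron libraries again lay above the untreated ones, but the log2 fold change of 0.15 ± 0.07 (SE, 95% interval 0.01 to 0.29) did not pass the test (edgeR adjusted p = 0.0762). Per kilobase, the level of Drosha was 4.09 and 4.06 times that of Dgcr8 in untreated and 4.21 and 4.49 times in degron libraries. Dgcr8 shares 825 exonic bases with Trmt2a on the opposite strand, whose log2 fold change was 0.01 (edgeR adjusted p = 0.949), and 327 with Gm49776, which had no counts.

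Xpo5 (chr17:46202782-46243598, plus strand), the export receptor, had 176 and 185 CPM in untreated and 163 and 174 CPM in degron libraries. The degron libraries lay just below the untreated ones, and the log2 fold change of -0.10 ± 0.06 (SE, 95% interval -0.21 to 0.01) did not pass the test (edgeR adjusted p = 0.153). Dicer1 (chr12:104687742-104751952, minus strand), whose product makes the final cut, had 169 and 166 CPM in untreated and 168 and 157 CPM in degron libraries. Its groups overlapped, with a log2 fold change of -0.04 ± 0.06 (SE, 95% interval -0.15 to 0.07, edgeR adjusted p = 0.585). When trends with exonic length were taken out of each library, both genes were called lower, Dicer1 at -0.17 (edgeR adjusted p = 0.00908) and Xpo5 at -0.15 (edgeR adjusted p = 0.0160). Xpo5 was also called lower without untreated replicate 1, at -0.14 (edgeR adjusted p = 0.0477).

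Ago2 (chr15:73095844-73184935, minus strand), the Argonaute that can slice its targets, had 473 and 425 CPM in untreated and 524 and 497 CPM in degron libraries. The groups did not overlap, although the lowest degron library lay only a little above the highest untreated one. Ago2 had a log2 fold change of 0.19 ± 0.06 (SE, 95% interval 0.07 to 0.30, edgeR adjusted p = 0.00463), a fold of 1.14. Without untreated replicate 2 it was 0.11 (edgeR adjusted p = 0.112), without degron replicate 1 it was 0.15 (edgeR adjusted p = 0.164), and after removal of the length trend it was 0.07 (edgeR adjusted p = 0.278). Ago2 shares 219 exonic bases with Chrac1 on the opposite strand, whose log2 fold change was -0.27 (edgeR adjusted p = 0.0528).

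Ago1 (chr4:126435012-126468583, minus strand), an Argonaute that represses its targets without slicing, had 154 and 141 CPM in untreated and 150.0 and 143 CPM in degron libraries. The degron libraries lay between the untreated ones, with a log2 fold change of -0.01 ± 0.06 (SE, 95% interval -0.12 to 0.10, edgeR adjusted p = 0.909). Per kilobase, the level of Ago2 was 1.78 and 1.75 times that of Ago1 in untreated and 2.02 and 2.01 times in degron libraries. Ago3, another Argonaute and no member of the set, lay far lower. The level of Ago2 per kilobase was 17.3 and 16.2 times that of Ago3 in untreated and 19.7 and 19.2 times in degron libraries.

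Levels of different genes were compared as CPM per kilobase of annotated exon, which includes exons that these cells may not use. In untreated cells Lin28a stood highest at 38.6 ± 0.605, followed by Drosha at 32.1 ± 0.149, Ago2 at 32.0 ± 2.42, Trim71 at 30.0 ± 1.46 and Xpo5 at 26.3 ± 0.969 CPM per kilobase (SD, n = 2). Ago1 (18.2 ± 1.15), Dicer1 (9.97 ± 0.131), Dgcr8 (7.87), Dis3l2 (4.52 ± 0.239) and Lin28b (3.14 ± 0.142) followed. Drosha and Ago2, and Ago2 and Trim71, differed by less than the sum of their SDs. In degron cells Lin28a, at 22.0 ± 0.488 CPM per kilobase, stood below Drosha (37.9 ± 0.663), Ago2 (36.4 ± 1.37), Trim71 (31.2 ± 0.536) and Xpo5 (24.6 ± 1.22). Below it came Ago1 (18.1 ± 0.594), Dicer1 (9.70 ± 0.492), Dgcr8 (8.72 ± 0.543), Dis3l2 (3.90 ± 0.0316) and Lin28b (2.95 ± 0.375). Drosha and Ago2, and Dicer1 and Dgcr8, differed by less than the sum of their SDs there. Lin28a was the single gene of the 10 whose place in the order changed, from the first to the fifth, apart from the genes it passed.

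Genes that work around the members were described from lists of known factors, with the members themselves left out. Among 7 tailing and trimming factors of small RNAs, 2 were called higher and 3 lower, with a median log2 fold change of -0.16. Over all tested genes 22.2% were called higher and 21.6% lower. DESeq2 called 0 of the 7, against 22.0% of all genes to which it gave an adjusted p. TUT4 is a uridylyltransferase that LIN28A recruits. Tut4 had 88.1 and 83.4 CPM in untreated and 94.6 and 97.9 CPM in degron libraries (log2 fold change 0.17 ± 0.06 SE, edgeR adjusted p = 0.0239). It was named for this role and after its values were seen. The call was lost with DESeq2 (adjusted p = 0.266), after removal of the length trend (edgeR adjusted p = 0.234) and without untreated replicate 2, degron replicate 1 or degron replicate 2 (edgeR adjusted p = 0.131, 0.0675 and 0.190). Its relative Tut7 had a log2 fold change of 0.14 (edgeR adjusted p = 0.111) and shares 1299 exonic bases with Etohd2 on the opposite strand. Trim25, a ubiquitin ligase described as a cofactor of LIN28A and TUT4, had 253 and 247 CPM in untreated and 227 and 217 CPM in degron libraries (log2 fold change -0.17, edgeR adjusted p = 0.00569). Usb1 and Eri1, a pair of exonucleases that trim small RNAs, had log2 fold changes of -0.29 (edgeR adjusted p = 0.00200) and -0.19 (edgeR adjusted p = 0.00592), and the poly(A) polymerase gene Tent2 had one of 0.20 (edgeR adjusted p = 0.0211). For Trim25, Usb1, Eri1 and Tent2 the DESeq2 values missed the threshold (adjusted p = 0.0591, 0.122, 0.139 and 0.285). In edgeR Usb1 lost its call without degron replicate 1 (adjusted p = 0.0575), and Trim25 and Eri1 lost theirs without degron replicate 2 (adjusted p = 0.175 and 0.148). Tent2 lost its call without untreated replicate 2 (edgeR adjusted p = 0.216) and without degron replicate 1 (edgeR adjusted p = 0.285), where its log2 fold change was 0.13 and 0.14.

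Cofactors of the nuclear and cytoplasmic processing steps did not all move one way. Of 13 such genes 7 were called lower, 5 were not called and 1, the RNA deaminase gene Adar, was called higher, with a median log2 fold change of -0.26, against 21.6% of all tested genes called lower, 22.2% called higher and a median of 0.01. Adar shares 1365 exonic bases with Chrnb2 on the opposite strand. DESeq2 called 7 of the 13 lower and 0 higher. Over all 13295 genes to which it gave an adjusted p, it called 1484 lower and 1440 higher. Erh, whose product binds DGCR8 and helps with suboptimal hairpins, had 274 and 311 CPM in untreated and 185 and 198 CPM in degron libraries (log2 fold change -0.61 ± 0.06 SE, edgeR adjusted p = 4.77e-15). It shares 459 exonic bases with Slc39a9 and 306 with Gm47879, both on the opposite strand. Srrt (ARS2), which links the cap-binding complex to primary microRNAs, had 237 and 242 CPM in untreated and 164 and 163 CPM in degron libraries (log2 fold change -0.55 ± 0.05 SE, edgeR adjusted p = 4.06e-14). The splicing factor Srsf3, which recognises a motif beside many hairpins, had 628 and 679 CPM against 458 and 480 CPM, with a log2 fold change of -0.48 (edgeR adjusted p = 2.82e-11). Safb, an RNA-binding protein reported to aid processing of clustered hairpins, had one of -0.33 (edgeR adjusted p = 4.88e-07). The RNA helicase genes Ddx5 and Ddx17 and the hairpin-binding factor gene Khsrp had values of 0.06, 0.04 and 0.06 and were not called. The DICER1 partners Tarbp2 and Prkra had log2 fold changes of 0.00 and 0.08 and were not called.

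Among 17 genes, namely Ago3, Ago4 and partners of the Argonautes, 4 were called higher and 7 lower, with a median log2 fold change of -0.05. DESeq2 called 3 higher and 6 lower, against 22.0% of all genes called in either direction. Over all tested genes edgeR called 22.2% higher and 21.6% lower. Zswim8, which encodes the receptor of the ubiquitin ligase that destroys Argonautes in target-directed microRNA decay, had the largest rise of this list. It had 16.3 and 14.2 CPM in untreated and 41.6 and 41.7 CPM in degron libraries (log2 fold change 1.44 ± 0.10 SE, edgeR adjusted p = 5.79e-20). The chaperone gene Hspa8, whose product helps to load Argonautes, had 2619 and 2730 CPM in untreated and 1538 and 1672 CPM in degron libraries (log2 fold change -0.74 ± 0.06 SE, edgeR adjusted p = 4.64e-17). The co-chaperone gene Fkbp4 fell by 0.43 on the log2 scale (edgeR adjusted p = 1.32e-09). The scaffold gene Tnrc6c (GW182 family) had 80.0 and 81.6 CPM in untreated and 109 and 108 CPM in degron libraries (log2 fold change 0.43 ± 0.06 SE, edgeR adjusted p = 1.36e-08). Its level per kilobase was 0.634 and 0.672 times that of Tnrc6a in untreated and 0.845 and 0.851 times in degron libraries. Ago3 and Ago4 were not called, with log2 fold changes of -0.03 and 0.85 (edgeR adjusted p = 0.836 and 0.0665), and Ago4 was at 0.87 to 2.15 CPM.

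Of 24 deadenylation, decapping and decay factors 5 were called higher and 2 lower, with a median log2 fold change of 0.01. DESeq2 called 3 higher and 0 lower, against 22.0% of all genes called in either direction. Over all tested genes edgeR called 22.2% higher and 21.6% lower. Xrn1, the 5′ to 3′ exonuclease that finishes decay of repressed mRNAs, had 114 and 103 CPM in untreated and 152 and 151 CPM in degron libraries (log2 fold change 0.48, edgeR adjusted p = 9.00e-11). It shares 604 exonic bases with C78334 and 184 with Gm16794, both on the opposite strand. The decapping enzyme gene Dcp2 had 285 and 290.3 CPM against 357 and 356 CPM, a log2 fold change of 0.31 (edgeR adjusted p = 1.17e-06). Its cofactor gene Dcp1b was sparse, at 4.64 and 5.85 CPM against 7.64 and 12.3 CPM. Its change on the log2 scale was 0.92 with an SE of 0.21 (edgeR adjusted p = 0.000138), and 0.55 without degron replicate 2 (edgeR adjusted p = 0.0876). The deadenylase gene Pan2 had a log2 fold change of -0.21 (edgeR adjusted p = 0.00367), a call lost with DESeq2 (adjusted p = 0.120), without untreated replicate 1 and without degron replicate 2 (edgeR adjusted p = 0.0686 and 0.0762). Of the 11 CCR4-NOT genes in the list, Cnot6 alone was called, at -0.14.

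**Figure D3:**
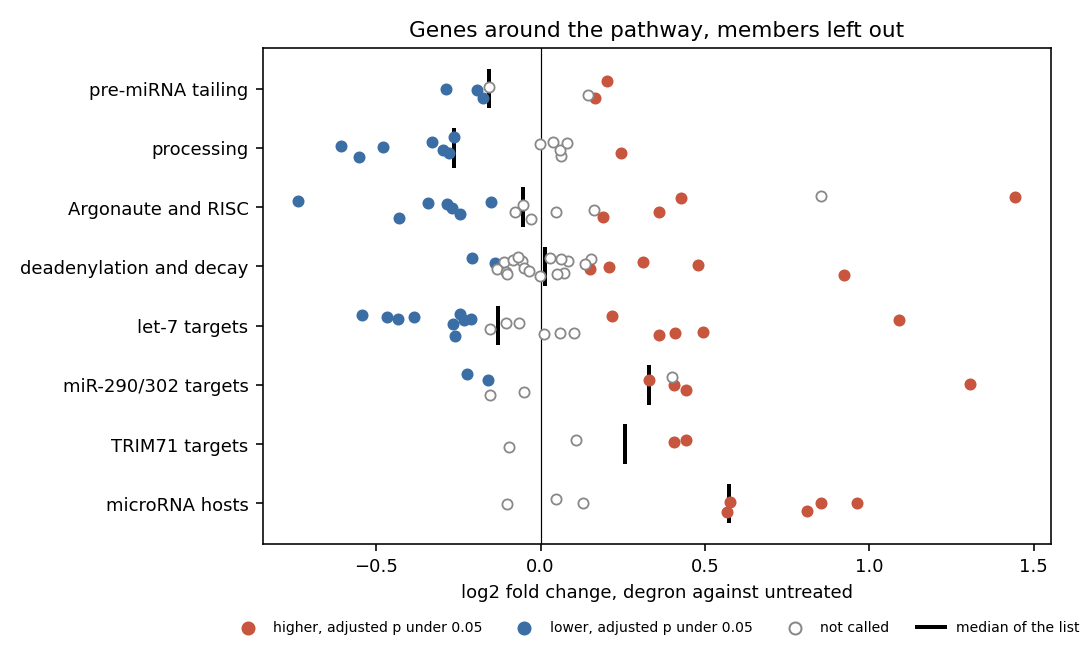
Log2 fold change in degron against untreated cells of each tested gene in 8 lists around the pathway, members left out, with the median of each list as a black bar. In the processing list 7 of 13 genes were called lower (median -0.26), and in the microRNA hosts 5 of 8 were called higher (median 0.57). The let-7 targets lie on both sides (median -0.13). Over all tested genes 22.2% were called higher and 21.6% lower.

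Mature microRNAs were not measured, since these libraries count longer RNA. The 12 let-7 and miR-98 hairpin genes had 0 counts in every library. By counting error only, this allows up to 3 counts per library, or 0.283 to 0.360 CPM of the unscaled library totals. Mirlet7a-1, Mirlet7d and Mirlet7f-1 lie wholly within exons of 6720427I07Rik on the same strand. Mirlet7b and Mirlet7c-2 lie likewise within Lncppara, and Mirlet7i within D630033A02Rik. How reads shared between genes were counted is not given, so the bound may not hold for these hairpins. The 14 hairpin genes of the miR-290 and miR-302 clusters summed to 2, 0, 1 and 0 counts in the 4 libraries, with Mir290a, Mir302b and Mir302d at 1 count each. The transcripts that carry microRNAs were better covered. Of 8 tested host genes 5 were called higher and 0 lower in edgeR, with a median log2 fold change of 0.57. Over all tested genes edgeR called 22.2% higher and 21.6% lower. DESeq2 called 3 of the hosts higher, against 22.0% of all genes called in either direction. These 3 were Meg3, Rian and Mirg, which lie close together on chromosome 12. At an unadjusted p under 0.05 the count of lower hosts was also 0, as it was with DESeq2 and with limma-voom.

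The hosts Meg3, Rian and Mirg lie together in the imprinted Dlk1-Dio3 region of chromosome 12, whose maternal noncoding RNAs carry many microRNAs. All 13 hosts found in the counts summed to 857 and 864 CPM in untreated and 1077 and 1028 CPM in degron libraries. The rise in this sum lay in Meg3 and Rian, whose levels follow. Mcm7, the host with the highest level, had 426 and 458 CPM in untreated and 415 and 409 CPM in degron libraries. It was not called (log2 fold change -0.10, edgeR adjusted p = 0.122). The sum therefore does not show a rise of hosts outside chromosome 12. Meg3 had 155 and 138 CPM in untreated and 274 and 242 CPM in degron libraries (log2 fold change 0.81 ± 0.06 SE, edgeR adjusted p = 1.94e-20). It shares 1228 exonic bases with Gm26906 on the opposite strand. Rian had 196 and 187 CPM against 293 and 277 CPM (log2 fold change 0.58 ± 0.05 SE, edgeR adjusted p = 6.96e-15). Mirg had 6.63 and 7.26 CPM against 13.1 and 14.0 CPM (log2 fold change 0.96 ± 0.17 SE, edgeR adjusted p = 1.42e-06). These neighbours on 1 chromosome are not independent of each other. Mir22hg, the host of miR-22, rose from 2.56 and 4.77 CPM to 5.89 and 7.17 CPM (log2 fold change 0.85 ± 0.24 SE, edgeR adjusted p = 0.00292). It was at 0.44 without untreated replicate 1 (edgeR adjusted p = 0.196) and 0.71 without degron replicate 2 (edgeR adjusted p = 0.0567), DESeq2 did not call it (adjusted p = 0.148), and it shares 206 exonic bases with Tlcd2 on the same strand. Mir17hg, the host of the miR-17-92 cluster, had a log2 fold change of 0.05 (edgeR adjusted p = 0.761), and Sfmbt2, the host of a large rodent microRNA cluster, had one of 0.13 (edgeR adjusted p = 0.209).

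Known targets of let-7 moved in both directions. Of 20 tested targets that are not members, 5 were called higher and 9 lower, with a median log2 fold change of -0.13. DESeq2 called 4 higher and 6 lower, against 22.0% of all genes called in either direction. The edgeR shares were 25% higher and 45% lower, against 22.2% and 21.6% of all tested genes. Hmga2, a chromatin protein and classic let-7 target, had 22.2 and 19.8 CPM in untreated and 41.2 and 48.8 CPM in degron libraries (log2 fold change 1.09 ± 0.10 SE, edgeR adjusted p = 1.11e-15), and shares 140 exonic bases with 1700006J14Rik on the opposite strand. Igf2bp3, which encodes an oncofetal RNA-binding protein, had a log2 fold change of 0.41 (edgeR adjusted p = 6.40e-09). It shares 1529 of its 8159 exonic bases with Malsu1 on the opposite strand, whose log2 fold change was -0.13 (edgeR adjusted p = 0.168). Its relative Igf2bp2 had 154 CPM in both untreated and 116 and 107 CPM in degron libraries, a log2 fold change of -0.47 (edgeR adjusted p = 1.33e-10). Mycn, a MYC family transcription factor, had 95.2 and 107 CPM against 70.3 and 68.2 CPM, a log2 fold change of -0.54 (edgeR adjusted p = 6.94e-11). The cell cycle phosphatase gene Cdc25a fell by 0.43 on the log2 scale (edgeR adjusted p = 3.78e-10). The site near the start of the 3′ UTR of Hmga2 is shown for comparison with those of the members (GRCm38, minus strand).
Hmga2, chr10:120364221-120364244: cgacattcaatttCTACCTCAgca

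Targets of miR-290 and miR-302 family members and of TRIM71 overlap in part, and many of them restrain the cell cycle. Over all tested genes edgeR called 22.2% higher and 21.6% lower, the background for the edgeR calls of both lists. DESeq2 called 22.0% of all genes in either direction, the background for its own calls. Of 9 tested targets of the miR-290 and miR-302 family 4 were called higher and 2 lower, with a median log2 fold change of 0.33. DESeq2 called 1 of these higher and 0 lower. Of 4 tested TRIM71 targets 2 were called higher and 0 lower in edgeR, 1 was called higher in DESeq2, and 0 were lower at an unadjusted p under 0.05, with DESeq2 or with limma-voom. Cdkn1a and Rbl2 stand in both lists. Cdkn1a, the inhibitor p21 of cyclin-dependent kinases, had 137 and 122 CPM in untreated and 178 and 175 CPM in degron libraries (log2 fold change 0.44 ± 0.06 SE, edgeR adjusted p = 7.74e-10), and shares 273 exonic bases with AC167363.2 on the opposite strand. Rbl2, a relative of the retinoblastoma protein, had 8.05 and 9.43 CPM against 11.1 and 11.9 CPM. It passed narrowly, at 0.40 on the log2 scale with an SE of 0.16 (edgeR adjusted p = 0.0386). The call was lost with DESeq2 (adjusted p = 0.345) and without untreated replicate 1, degron replicate 1 or degron replicate 2 (edgeR adjusted p = 0.260, 0.0745 and 0.179). Rbl2 shares 693 exonic bases with Aktip and 892 with Gm45464, both on the opposite strand.

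Tgfbr2, a receptor of TGF-beta and a target of miR-302, was barely expressed, at 1.14 and 1.84 CPM in untreated and 3.60 and 3.70 CPM in degron libraries (log2 fold change 1.31 ± 0.33 SE, edgeR adjusted p = 0.000690). Rhoc, a small GTPase, had 42.0 and 44.9 CPM against 51.7 and 57.6 CPM (log2 fold change 0.33 ± 0.08 SE, edgeR adjusted p = 0.000317). DESeq2 called neither Tgfbr2 (adjusted p = 0.0855) nor Rhoc (adjusted p = 0.0655). Ei24 had a log2 fold change of -0.16 (edgeR adjusted p = 0.0157), which was not called by DESeq2 (adjusted p = 0.171) or without untreated replicate 2, degron replicate 1 or degron replicate 2 (edgeR adjusted p = 0.104, 0.145 and 0.108). It shares 324 exonic bases with Gm26787 on the opposite strand. Rbl1, a further relative of the retinoblastoma protein, and Mbnl1, a splicing regulator, had log2 fold changes of -0.09 and 0.11 and were not called (edgeR adjusted p = 0.267 and 0.546). The miR-294 sites of the 3 targets named here that hold one are shown (GRCm38), the match in capitals. These targets were named by their small p, and DESeq2 called Cdkn1a alone of the 3. Of the 11 targets in the miR-290 and miR-302 list, tested or not, 6 held a site. The display therefore does not show how genes with a site moved. The Rbl2 site starts at base 1384 of a 3′ UTR of 1398 bases, close to its end.
Cdkn1a, chr17:29100487-29100510, plus strand: ccgtgggtgtcaaAGCACTTAgtg
Rbl2, chr8:91123817-91123840, plus strand: tatttttcaataaAGCACTTAtaa
Tgfbr2, chr9:116087768-116087791, minus strand: tatcaaaacctaaAGCACTTAttt

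Over the whole transcriptome the seed sites went with small differences only. Of 465 tested genes with at least 1 let-7 site, 28.4% were called higher and 20.6% lower, with a median log2 fold change of 0.06. Of 12022 genes without one, 23.5% were called higher and 22.6% lower, with a median of 0.01. Of 440 genes with a miR-294 site, 26.1% were called higher and 15.7% lower, with a median of 0.06. Of 12047 genes without one, 23.6% were called higher and 22.8% lower, with a median of 0.01. Genes with a site had longer 3′ UTRs, with a median of 2474 bases for let-7 sites and 2852 bases for miR-294 sites, against 1110 bases without the site in each case. The part of this length in the differences was not tested. These classes were chosen after the data had been seen and no test was made of them. Lin28a, with 2 let-7 sites, lay near the low end of the genes with a site, and Trim71, with 4, near their median.

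**Figure D4:**
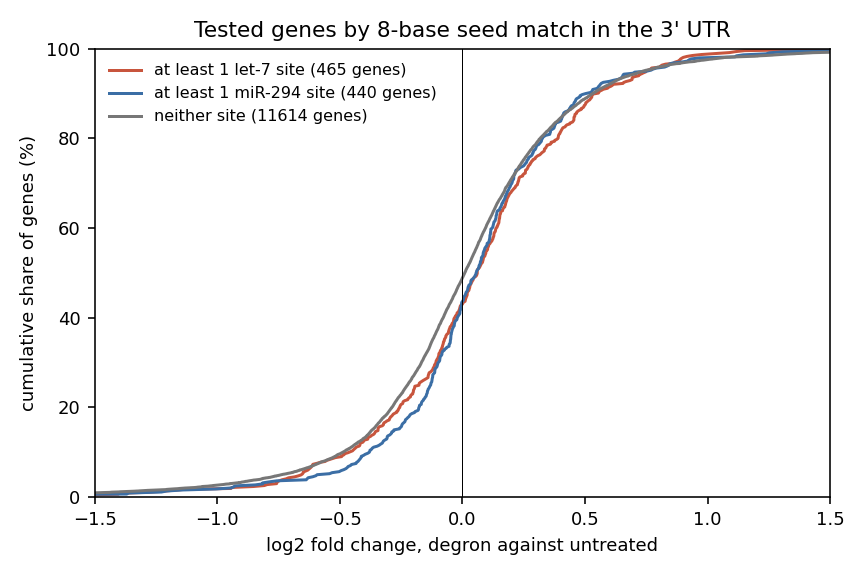
Cumulative share of tested genes (%) by log2 fold change in degron against untreated cells, for genes with at least 1 let-7 site (465), at least 1 miR-294 site (440) or neither (11614) in the 3′ UTR. The curves with a site run slightly to the right of the curve without one near 0, with medians of 0.06, 0.06 and 0.01.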

How the data were processed

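RNA was sequenced in 4 libraries, 2 untreated and 2 degron. The authors deposited raw counts for each gene. They trimmed reads with cutadapt 2.6, mapped them to mm10 with STAR 2.7.6a, kept primary alignments without PCR duplicates, which can lower counts of abundant genes, and counted genes of GENCODE vM25 with featureCounts 1.6.3. Genes that overlap on opposite strands cannot be separated, because the strand setting is not given in the sources used here. Sources differ on the RNA, poly(A) by the labels and total RNA by the study.

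Of 55401 gene IDs, 55141 matched GENCODE vM21 (GRCm38) with versions dropped, an older release that supplied symbols, coordinates, exonic lengths and 3′ UTRs. Unmatched IDs took 0.0118 to 0.0145% of counts. The model was edgeR 4.0.16 in R 4.3.3, with filterByExpr, TMM scaling, group as the only term and the quasi-likelihood F test. Benjamini-Hochberg adjustment ran over all 13916 tested genes. The SE is the log2 fold change divided by the square root of F. The common biological coefficient of variation was 3.31%. The smallest two-sided p of an exact permutation test with 2 libraries a group is 0.333. Sampling noise did not account for all of the spread between replicates, with a chi-square per gene of 2.11 (untreated) and 1.60 (degron).

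Members and lists were chosen with earlier results of these data known, and the site classes after the data were seen. The genes named were the members, Zbtb21, up to 4 genes of each list with the smallest p, and every called gene of lists with at most 6 tested genes. The 3 genes closest to Lin28a were found on log2 (CPM + 0.5). Other genes were named after their values were seen. Alternatives were other scalings and filters, the replicate block, removal of the trend on exonic length (a spline with 5 degrees of freedom), each library left out, DESeq2 1.42.0 and limma-voom (limma 3.58.1). Of 26808 genes with a count, 13513 received no adjusted p from DESeq2 and were left so. Sites were searched on the sense strand of the longest 3′ UTR per gene among coding transcripts with a stop codon.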

Additional observations from a re-analysis of the deposited data

How the results depend on the processing

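Over 12 alternatives, Lin28a and Drosha kept their calls and their direction in each. The number of members called higher, 2, was 1 with the length trend removed and 1 to 2 with a library left out. The number called lower, 2, was 1 with library sizes alone, without the low-count filter or with DESeq2, 4 with the length trend removed, and 1 to 3 with a library left out. DESeq2 called 1440 genes higher and 1484 lower over all genes, and edgeR with a library left out called 2357 to 2757 higher and 2156 to 2810 lower. Values that changed sign belonged to genes that were not called. With the length trend removed Trim71 was at -0.025 and Mbnl1 at -0.025, and with library sizes alone Ago1 was at 0.020. With a library left out, Lin28b ranged from -0.22 to 0.035, Trim71 from -0.00081 to 0.11, Dicer1 from -0.092 to 0.012 and Ago1 from -0.069 to 0.050. The values past 0 were those of Lin28b without degron replicate 1, Trim71 without untreated replicate 1, Dicer1 without degron replicate 2, and Ago1 without untreated replicate 1 or degron replicate 2. Dis3l2 lost its call with library sizes alone (edgeR adjusted p = 0.0850) and without the filter (edgeR adjusted p = 0.102), and Dgcr8 was called higher with library sizes alone (edgeR adjusted p = 0.0367). The replicate numbers were not shown to pair the libraries, since deviations of same-numbered libraries from their group means correlated at only 0.059. With 2 libraries a group both pairs must give this same value, so it is a single number. With the replicate block, 3369 genes were called higher and 3276 lower, and 3 members higher and 2 lower, Dgcr8 being added (edgeR adjusted p = 0.0490). The cause of these shifts was not tested. The microRNA hairpin genes were too sparse for any test.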
